A study of Mus musculus with 8 samples.

Results

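The genes described here are 10 that build the node of Ranvier and the contacts between axon and glia on either side of it. They were taken from the deposited table by symbol: Cntn1, Cntn2, Cntnap1, Cntnap2, Nfasc, Nrcam, Ank3, Sptbn4, Tnr and Gldn. All 10 were found, among 24081 unique genes, and all 10 passed the filter on low values. The rule uses the symbols alone, but the genes were chosen with earlier results of these data known.

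A myelinated axon conducts by jumping from node to node, the short gaps between myelin segments where sodium channels are crowded. At the paranode beside each gap, the glial form of neurofascin on the myelin loops binds contactin-1 and its partner Caspr on the axon, and this junction separates the nodal sodium channels from the potassium channels of the juxtaparanode further out. Ankyrin-G and beta-IV spectrin hold channels and adhesion molecules in place beneath the nodal membrane, and a matrix that contains tenascin-R surrounds the node in the central nervous system. In the brainstem (BS), myelinating oligodendrocytes (OL) provide the glial side and neurons the axonal side, and the domains are assembled as myelin is formed after birth.

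RNA-seq was performed on BS of 4 KI and 4 control mice, which the labels place at postnatal day 19 on a C57BL/6 strain, without treatment. Both groups carried Nestin Tv-a, p53 fl/fl and Olig2-Tv-a/Cre, so the control mice, too, lacked p53 wherever Cre had been active. The KI mice carried hPDGFRA fl/+ in addition, a human PDGFRA cDNA in the Rosa26 locus under the CAG promoter, which Cre frees from a stop cassette. Cre was driven by Olig2, whose progenitors give rise to motor neurons as well as to the OL lineage. The methods state that KI mice were collected when ill, together with control littermates. The tissue was whole BS, so fewer cells of a type and less RNA per cell cannot be told apart. The labels give each library a number within its group but no litter or day, and p-values measure the spread between these libraries, which may be partly technical.

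Reads recovered from the table summed to 24816146 to 27716846 in control libraries and to 21492789 to 24458589 in KI libraries, and the KI libraries were all less deep. Values below are normalized read counts, the reads of a gene divided by a factor for the size of the library. KI replicate 4 stood apart from the other KI libraries. Its Pdgfra level was 3269, against 8939 to 11437 in KI replicates 1 to 3 and 2565 to 3087 in control libraries, and its level of Gt(ROSA)26Sor, the transcript of the targeted locus, was 328, against 573 to 605 and 82.9 to 93.9. KI replicate 4 was therefore above all controls in both, but closest to them. The values used here come from reads aligned to the mouse genome. The paper also aligned the reads to the human genome and reported hPDGFRA expression in KI but not in control samples. The part of the Pdgfra level above that comes from the human cDNA was not tested. Xist, which is expressed from the inactive X chromosome of females, reached 4155 in control replicate 2, 7792 in control replicate 3 and 8943 in KI replicate 4, with at most 43.9 in any other library. Among KI libraries only replicate 4 was high in Xist, so sex and its other differences cannot be told apart. Fits without KI replicate 4 compare KI libraries that are all low in Xist with controls of both kinds. The choroid plexus gene Ttr had a level of 44.9 in the 4th control library and of 237 in the 3rd KI library, against 14985 or more in the others. Marker genes listed for each cell type were also read. The 10 neuronal markers summed to 197713 to 236595 in control and 216996 to 240889 in KI libraries, and no marker of any list was at 0 in all libraries. The lists are of cell types and not of brain regions, so the BS label itself was not tested.

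Of the 10 genes, 3 were lower in KI than in control mice, none was higher, and 7 did not pass the test. The 3 were Tnr, Nfasc and Cntn2, with fitted levels of 31.0%, 33.7% and 53.1% of control. The test was limma on log2(normalized count + 1) over the 15123 genes with a mean of at least 10, with Benjamini-Hochberg adjustment at 0.05. By this test 24.4% of all genes were changed in either direction and 12.4% were lower in KI mice, and whether 3 of 10 differs from these shares was not tested. At an unadjusted p under 0.05 in limma, 1 of the 10 was higher, Sptbn4, as were 2859 of all 15123 genes. Neither DESeq2 nor edgeR on the recovered reads called any of the 10 higher after adjustment. The KI and control libraries did not overlap for 2 of the 10, Tnr and Nfasc, and for 25.5% of all genes tested. The median log2 fold change of the 10 was 0.0086, and that of all genes -0.0040. Without KI replicate 4, 4 of the 10 passed the test, with Sptbn4 as the fourth, but 35.0% of all genes then did. The share of all genes called was 5.88% without control replicate 2, 6.63% without KI replicate 2 and 12.4% to 22.1% without any other single library, and Tnr and Nfasc were called in each of these fits.

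**Figure D1:**
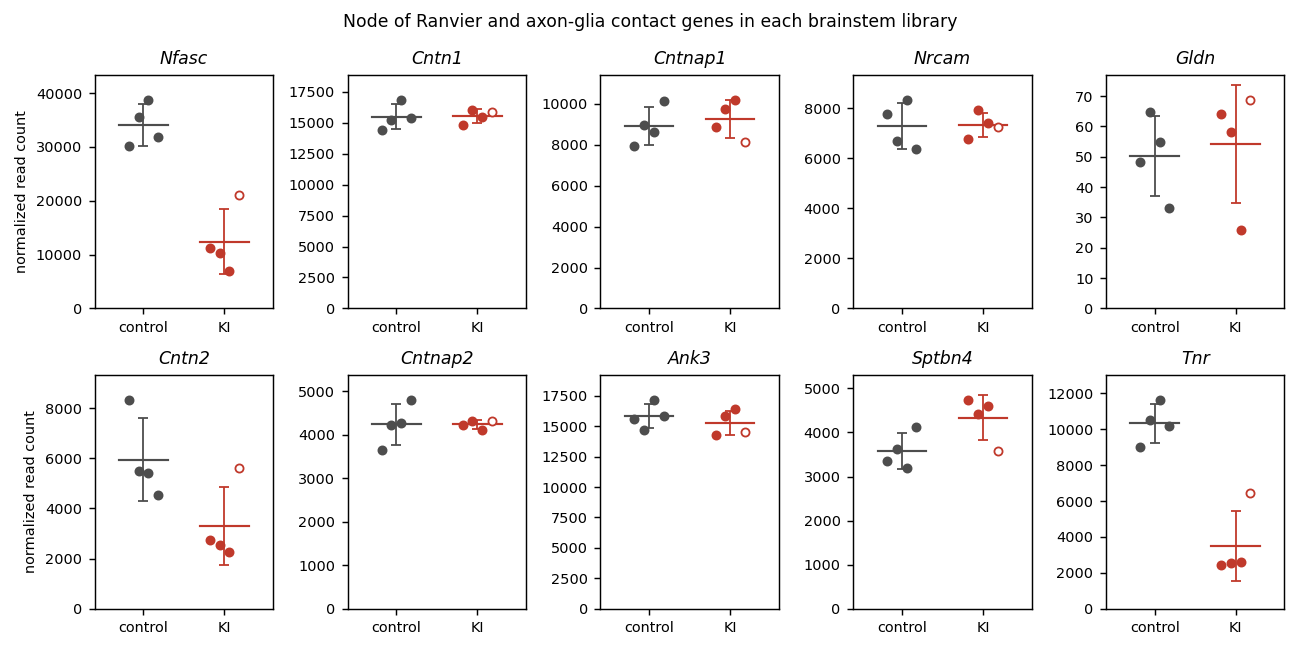
Normalized read count (vertical axes, from 0) of each of the 10 genes in 4 control (grey) and 4 KI (red) BS libraries, with the mean as a line and the SD as an error bar; the open red circle is KI replicate 4. Nfasc and Tnr were lower in each KI library than in each control library, Cntn2 was lower in KI replicates 1 to 3, and the other genes overlapped between groups.

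For the 3 genes that fell, a window before an annotated transcript start is shown, since transcription starts there. They are the 250 bases before a RefSeq transcript start on GRCm38.p6, printed on the strand of the gene, with matches to ACAAAG or ACAATG (the core letters bound by SOX proteins) or to CAGCTG or CAGATG (E-boxes bound by OLIG and related proteins), searched on both strands, in capitals. Such windows were found for 8 of the 10 genes, 15 windows in all, and Nfasc has 2, of which the first listed is shown. The Nfasc and Cntn2 windows precede RefSeq starts that lie inside the GENCODE loci given below. Tnr is on the plus strand at chr1:159523519-159523768, Nfasc on the minus strand at chr1:132707327-132707576, and Cntn2 on the minus strand at chr1:132542941-132543190.
Tnr: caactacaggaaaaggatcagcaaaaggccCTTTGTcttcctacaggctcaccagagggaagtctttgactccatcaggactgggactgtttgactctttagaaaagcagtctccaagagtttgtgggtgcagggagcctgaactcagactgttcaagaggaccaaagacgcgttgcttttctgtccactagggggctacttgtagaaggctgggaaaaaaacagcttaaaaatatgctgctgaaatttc
Nfasc: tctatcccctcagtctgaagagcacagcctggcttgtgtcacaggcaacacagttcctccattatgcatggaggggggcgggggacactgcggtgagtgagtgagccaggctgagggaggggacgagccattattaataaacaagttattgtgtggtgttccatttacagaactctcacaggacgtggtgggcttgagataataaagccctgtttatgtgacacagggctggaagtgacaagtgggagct
Cntn2: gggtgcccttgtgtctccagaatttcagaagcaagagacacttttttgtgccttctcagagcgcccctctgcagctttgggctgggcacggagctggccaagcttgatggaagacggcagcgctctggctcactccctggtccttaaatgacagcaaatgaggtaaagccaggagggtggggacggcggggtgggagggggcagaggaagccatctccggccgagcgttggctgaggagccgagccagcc
The Tnr window holds 1 match, whose first base is at -220 from the start and which reads CTTTGT on this strand, the reverse complement of ACAAAG. The other windows shown hold none. SOX letters occurred in 3 of the 15 windows and in 25.2% of 32851 RefSeq windows of the same length, and E-box letters in 1 of 15 and in 25.5%, so a match in 1 of these genes is common among promoters.

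The paranode was examined first. Nfasc encodes neurofascin, whose glial form sits on the paranodal loops of OL and whose neuronal form gathers sodium channels at the node and the axon initial segment. It lies at chr1:132564690-132741797 on the minus strand (GRCm38, GENCODE M21), with 36 merged exons. Nfasc was at 30151, 35577, 38777 and 31852 in control replicates 1 to 4 and at 11240, 10259, 7008 and 21044 in KI replicates 1 to 4. The groups did not overlap, and the highest KI library, replicate 4, was still at 61.7% of the control mean, against 20.6% to 33.0% in the other KI libraries. The mean fell from 34089 ± 3860 (SD, n = 4) to 12388 ± 6048 (SD, n = 4). The fitted log2 fold change, a difference of mean log2 values and not of these means, was -1.57 (SE 0.278, 95% interval -2.20 to -0.94, limma adjusted p = 0.0106). The call held in each of 8 fits that left out 1 library, with a log2 fold change of -1.86 to -1.34. A gene count sums the glial and neuronal forms, and the share of each in this fall was not tested.

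The axonal partners of glial neurofascin gave other values. Cntn1, at chr15:92051165-92341967, encodes contactin-1, a membrane-anchored adhesion molecule of the axon that is also expressed by glia. Its level was 14436, 15226, 16856 and 15357 in control and 14776, 16034, 15480 and 15841 in KI libraries. The KI values all lay within the control range, and the log2 fold change was 0.0075 (SE 0.0714, 95% interval -0.15 to 0.17, adjusted p = 0.9495). Cntnap1, at chr11:101170523-101190724, encodes Caspr, which pairs with contactin-1 in the axonal membrane. Its level was 7917, 8968, 8640 and 10129 in control and 8868, 9755, 10209 and 8123 in KI libraries, with a log2 fold change of 0.052 (95% interval -0.17 to 0.27, adjusted p = 0.732). The intervals of Cntn1 and Cntnap1 therefore leave out a fall of the size seen for Nfasc. Cntnap1 shares 233 bases of exon, 3.97% of its length, with Plekhh3 on the other strand, and the authors counted without strand and left out ambiguous reads, so a part of its reads can be missing.

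At the juxtaparanode, Cntn2 encodes contactin-2, present on axons and on OL, which joins with Caspr2 to hold potassium channels beneath the compact myelin. It lies at chr1:132509427-132543256 on the minus strand, 21433 bases from Nfasc on the same strand. Cntn2 was at 8330, 5477, 5412 and 4542 in control and at 2760, 2531, 2265 and 5614 in KI libraries. KI replicates 1 to 3 were below all controls, at 38.1% to 46.5% of the control mean, while KI replicate 4, at 94.5%, was above 3 of the 4 controls. The mean fell from 5940 ± 1649 to 3293 ± 1561 (SD, n = 4 each). The fitted log2 fold change, from mean log2 values, was -0.91 (SE 0.284, 95% interval -1.55 to -0.27, adjusted p = 0.0445).

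The Cntn2 call was close to the threshold. It was lost when control replicate 1, 2 or 3 or KI replicate 1, 2 or 3 was left out (adjusted p = 0.0832 to 0.122, log2 fold change -0.95 to -0.74) and kept without control replicate 4 (0.0435) or KI replicate 4 (0.00155, log2 fold change -1.20). It was also lost with edgeR (0.0679) and with log2 Xist as a covariate (0.122), and kept with DESeq2 (0.0145). In the libraries low in Xist alone, a setting chosen after seeing the data, the call was kept (0.0247, log2 fold change -1.29). Cntnap2, at chr6:45059357-47304213, encodes Caspr2, the axonal partner of contactin-2. Its level was 3642, 4223, 4264 and 4797 in control and 4222, 4320, 4103 and 4320 in KI libraries. All KI values were inside the control range, and the log2 fold change was 0.0097 (95% interval -0.17 to 0.19, adjusted p = 0.943).

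At the node itself, Nrcam, at chr12:44328885-44601964, encodes a relative of neurofascin that is found at nodes and on many growing axons. Nrcam was at 7768, 6683, 8342 and 6368 in control and at 6775, 7942, 7390 and 7241 in KI libraries, with a log2 fold change of 0.016 (95% interval -0.20 to 0.23, adjusted p = 0.920). Ank3, at chr10:69398773-70027438, encodes ankyrin-G, the adaptor that ties sodium channels and neurofascin to the cytoskeleton. It was at 15599, 14704, 17154 and 15853 in control and at 14274, 15810, 16387 and 14537 in KI libraries, with a log2 fold change of -0.054 (95% interval -0.23 to 0.12, adjusted p = 0.650). For both genes the groups overlapped and the interval was narrow around 0.

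Sptbn4, at chr7:27356383-27447686 on the minus strand, encodes beta-IV spectrin, which links ankyrin-G to actin at nodes and initial segments. It was at 3362, 3628, 3186 and 4113 in control and at 4738, 4425, 4597 and 3588 in KI libraries. KI replicates 1 to 3 were above all controls, whereas KI replicate 4 was below the highest control and at 100% of the control mean. The log2 fold change was 0.28 (SE 0.108, 95% interval 0.035 to 0.52), with an unadjusted p of 0.0290 and an adjusted p of 0.0883, so the gene did not pass the test. It did pass without control replicate 4 (0.35, adjusted p = 0.0471), without KI replicate 4 (0.37, adjusted p = 0.0127) and with values corrected for GC and length, a setting chosen after seeing the data, (0.44, adjusted p = 0.0238). Sptbn4 shares 134 bases of exon with Gm20479 on its strand and 243 with Gm44924 on the other.

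Gldn, at chr9:54286486-54341786, encodes gliomedin, which Schwann cells secrete at the nodes of peripheral nerve, where it binds neurofascin and NrCAM. It was at 48.1, 64.9, 54.7 and 33.2 in control and at 64.0, 58.0, 25.8 and 68.9 in KI libraries. These were the lowest levels of the 10 genes, and the interval of the log2 fold change, 0.056, ran from -0.68 to 0.80 (adjusted p = 0.917), so changes within these bounds cannot be told from the spread between libraries. The 8 Schwann cell markers summed to 2879 to 4079 in control and 2339 to 3686 in KI libraries. None of the 6 markers tested was called by limma, DESeq2 or edgeR. In limma 2 of them had an unadjusted p under 0.05, as did 5905 of all 15123 genes. The part of these markers in the level of Gldn was not tested.

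In the matrix around the node, Tnr encodes tenascin-R, which is secreted by OL and some neurons of the central nervous system and is a component of perineuronal nets as well. It lies at chr1:159523769-159931729 on the plus strand, with 24 merged exons, and its exons share 443 bases, 3.44% of their length, with the antisense gene Gm38039. Tnr was at 9027, 10508, 11639 and 10183 in control and at 2427, 2529, 2602 and 6456 in KI libraries. KI replicates 1 to 3 lay close together at 23.5% to 25.2% of the control mean, and KI replicate 4 was at 62.4%. All KI values were below all control values. The mean fell from 10339 ± 1074 to 3503 ± 1970 (SD, n = 4 each). The fitted log2 fold change, from mean log2 values, was -1.69 (SE 0.284, 95% interval -2.33 to -1.05, adjusted p = 0.00924), with the lowest adjusted p of the 10 genes. With 1 library left out, the log2 fold change was -2.03 to -1.56 and the call held in each of 8 fits.

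**Figure D2:**
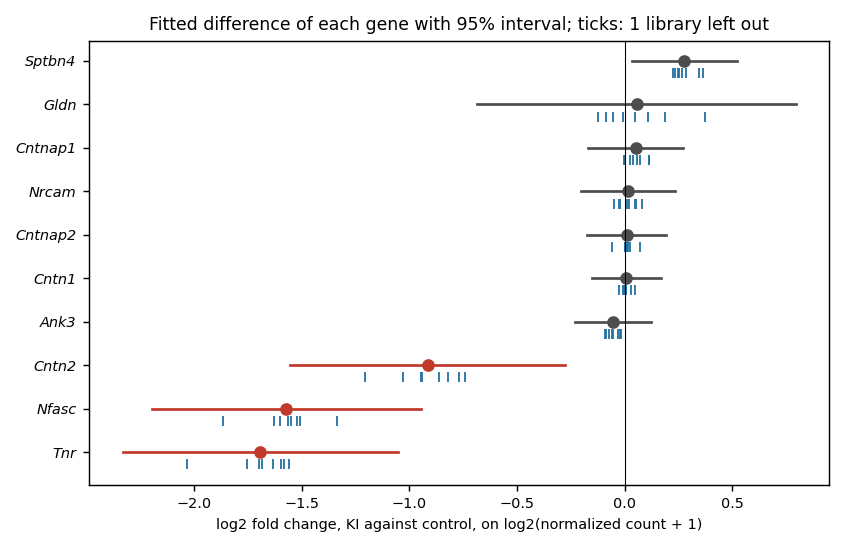
Log2 fold change of KI against control mice (horizontal axis) for each gene, with the 95% interval of the limma fit as a line and blue ticks for the 8 fits with 1 library left out; red marks genes past the threshold. Tnr, Nfasc and Cntn2 lay at -1.69, -1.57 and -0.91, and the intervals of the others, other than Sptbn4, crossed 0.

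The order of the genes was compared per kilobase of merged exon, since longer transcripts give more reads. Merged exons join those of all annotated transcripts of a gene, 34838 bases for Ank3. Where the transcripts present are shorter, the value per kilobase is too low. In control mice Nfasc was highest, with a level of 2410 ± 273 normalized counts per kilobase (SD, n = 4 for each value here), followed by Cntn1 with 1640 ± 107 and Cntnap1 with 1517 ± 157. Tnr had 804 ± 83.5, Cntn2 638 ± 177 and Nrcam 546 ± 69.1. Ank3 had 454 ± 29.1, Cntnap2 413 ± 46.0, Sptbn4 374 ± 42.2 and Gldn 10.8 ± 2.85. Neighbours in this order were closer than the sum of their SDs, except for Nfasc and Cntn1, Cntnap1 and Tnr, and Sptbn4 and Gldn. In KI mice Cntn1 had the highest level, 1647, Cntnap1 the next, 1573, and Nfasc, with 876 ± 428, came after both. Tnr had 272 ± 153, Cntn2 354 ± 168 and Sptbn4 454 ± 53.9, and both genes were closer to Sptbn4 than the sum of the SDs. In KI replicate 4 alone the order was another: Nfasc, with 1488, was above Cntnap1, with 1383, and Cntn2, with 603, and Tnr, with 502, were above Sptbn4, with 375.

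Ratios within a library do not depend on how libraries are scaled, and 6 pairs of relatives or binding partners were compared. The log2 ratio of Nfasc to its relative Nrcam was 1.96, 2.41, 2.22 and 2.32 in control and 0.73, 0.37, -0.076 and 1.54 in KI libraries. The groups did not overlap, and the mean difference was -1.59. The exact two-sided permutation test over 70 labelings gave p = 0.0286, the smallest it can give, and 0.171 after adjustment over the 6 pairs, which does not pass.

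The ratio of Cntn2 to Cntn1 fell short of the test as well, with means of -1.42 ± 0.431 and -2.34 ± 0.580 (SD, n = 4 each), a difference of -0.92 (exact permutation p = 0.0857, adjusted 0.171). KI replicate 4, at -1.50, lay among the controls. Cntn2 against Cntnap2, the axonal partner, gave a difference of -0.92 (exact permutation p = 0.114, adjusted 0.171). Ank3 against Sptbn4 gave 2.15 ± 0.216 and 1.82 ± 0.175, a difference of -0.33 (exact permutation p = 0.0571, adjusted 0.171). The paranodal partners Cntn1 and Cntnap1 differed by -0.044 (exact permutation p = 0.629, adjusted 0.686) and the relatives Cntnap1 and Cntnap2 by 0.042 (0.686 both before and after adjustment). No pair could pass after adjustment unless more than 3 of the 6 reached the smallest p, so these ratios are given as descriptions.

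**Figure D3:**
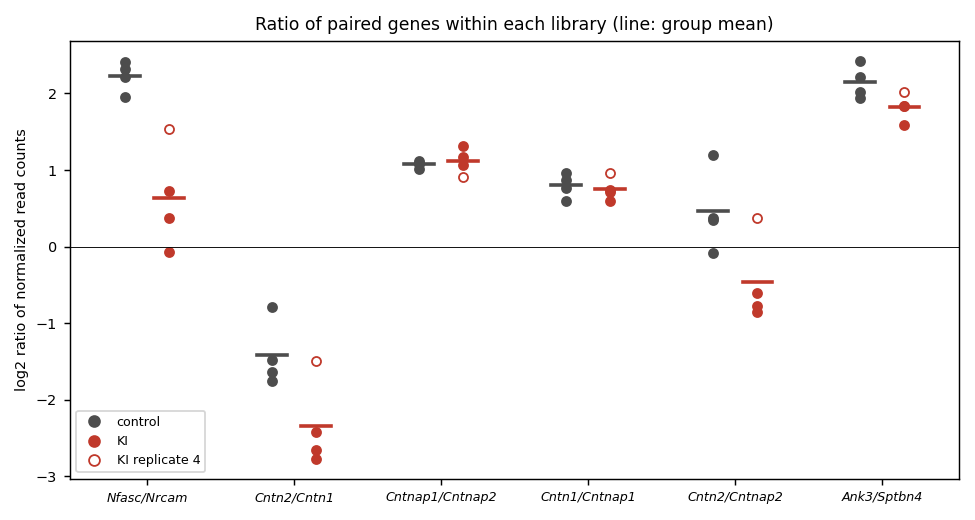
Log2 ratio of normalized read counts (vertical axis) for 6 pairs of genes in each control (grey) and KI (red) library, with group means as lines; the open circle is KI replicate 4. The Nfasc to Nrcam ratio was lower in all 4 KI libraries, while the Cntn1 to Cntnap1 and Cntnap1 to Cntnap2 ratios overlapped.

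Tnr, Nfasc and Cntn2 were nearer to control in KI replicate 4 than in the other KI libraries, and so were the medians of the markers of the OL lineage, none of which is among the 10 genes. The 10 markers of myelinating OL had a median of 39.6%, 31.7%, 21.7% and 94.2% of their control mean in KI replicates 1 to 4. Of these 10, 5 were lower (Myrf, Cnp, Mag, Mog and Opalin), and their sum ranged from 1095104 to 1667583 in control and from 460191 to 1366278 in KI libraries. The 6 markers of oligodendrocyte progenitors (OPC) had a median of 13.9%, 12.0%, 12.4% and 69.5%. By limma 4 of them were lower (Cspg4, Susd5, Matn4 and Neu4), and Pdgfra, the mouse counterpart of the knock-in cDNA, was higher. DESeq2 called 2 OPC markers lower and edgeR 1, and each called 4 of the myelinating OL markers lower. These counts stand beside the genes called lower among all 15123, which were 1874 (12.4%) by limma, 2162 by DESeq2 and 1698 by edgeR. Nfasc was at 33.0%, 30.1%, 20.6% and 61.7%, Tnr at 23.5%, 24.5%, 25.2% and 62.4%, and Cntn2 at 46.5%, 42.6%, 38.1% and 94.5%. Among KI replicates 1 to 3, Nfasc and Cntn2 were lowest in replicate 3, as was the myelinating OL median, and Tnr was lowest in replicate 1. The part of either list in these falls was not tested.

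Markers of the other cell types were examined in the same way. Neuronal markers had medians of 103%, 95.6%, 92.3% and 95.4%, with Snap25 and Map2 higher and Syn1 lower of 10 by limma. DESeq2 called 2 of them higher and 3 lower, and edgeR 2 higher and 1 lower. Of 8 astrocyte markers, 4 were higher by limma (Gja1, Slc1a2, Aldoc and Aldh1l1). The sum of the 8 was 146788 to 187957 in control and 207806 to 304733 in KI libraries. DESeq2 called 6 of the 8 higher and edgeR 4. No marker of 6 for microglia or of 6 for choroid plexus was called by limma, DESeq2 or edgeR, and none had an unadjusted p under 0.05 in limma. The choroid plexus sum was 407 to 102306 in control and 831 to 35737 in KI libraries, and the median of its 6 markers was 24.4%, 45.7%, 3.74% and 56.8% of the control mean in KI replicates 1 to 4. Of 6 endothelial markers Kdr was lower, and of 6 meningeal markers Col1a1 and Lum were lower. These marker counts stand beside those of all 15123 genes tested. Limma called 1811 of these genes higher and 1874 lower, DESeq2 2255 and 2162, and edgeR 1929 and 1698. Without the 2 libraries low in Ttr, Tnr and Nfasc still passed the test.

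**Figure D4:**
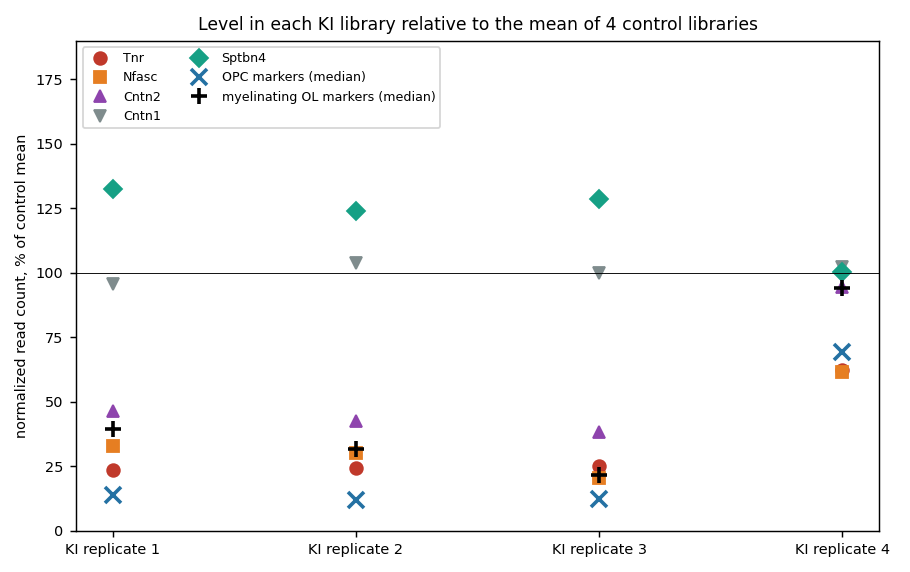
Normalized read count in each KI library as a percentage of the mean of 4 control libraries (vertical axis, from 0; line at 100%) for 5 of the genes, with the median over 6 OPC and 10 myelinating OL markers as crosses. Tnr, Nfasc and Cntn2 and both marker medians were lower in KI replicates 1 to 3 than in KI replicate 4, and Cntn1 stayed within 95.5% to 104%.

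Other genes of the node and its surroundings were examined in 6 lists, all of whose members were tested. They are read beside the 24.4% of all genes called, a share that was 5.88% to 35.0% with 1 library left out. Of all 15123 genes, 1811 were called higher and 1874 lower by limma, 2255 and 2162 by DESeq2 and 1929 and 1698 by edgeR. Of 12 nodal channel genes, 1 was higher and 1 was lower, with a median log2 fold change of -0.040. Scn8a, the main sodium channel of mature nodes, was at 9290, 8669, 9446 and 8931 in control and 7218, 7254, 7144 and 8596 in KI libraries (log2 fold change -0.27, SE 0.0757, adjusted p = 0.0323). Kcnq3, a subunit of a nodal potassium channel, was at 2444, 2726, 3246 and 2772 in control and 3206, 3541, 3305 and 3352 in KI libraries (0.27, adjusted p = 0.0494). KI values of Scn8a were below all controls, and those of Kcnq3 overlapped. Both calls were lost in 7 of 8 fits with 1 library left out, Scn8a in all but that without KI replicate 4 (adjusted p = 0.0522 to 0.0971) and Kcnq3 in all but that without control replicate 3 (0.0551 to 0.134).

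Among 10 genes of the spectrin and ankyrin scaffold, 1 was higher and 1 lower, with a median of 0.046. Epb41l1, a membrane skeleton protein of neurons, was at 16932 to 19525 in control and 21000 to 26849 in KI libraries (log2 fold change 0.41, adjusted p = 0.0191). Its relative Epb41l2 was at 5062 to 6056 in control and at 2693, 2838, 2959 and 4850 in KI libraries (-0.73, adjusted p = 0.0187). Neither overlapped between groups. The call of Epb41l1 was lost without control replicate 2 or 3 or KI replicate 2 (adjusted p = 0.0525 to 0.0661), and that of Epb41l2 without those or KI replicate 1 (0.0505 to 0.0622).

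In the juxtaparanode list of 12 genes, 1 was higher and 1 lower, with a median of -0.0029, and the 5 genes for potassium channel subunits in it did not pass the test. The secreted proteins Lgi1 and Lgi3, ligands of the ADAM proteins found there, went in different directions. Lgi3 was at 9535 to 11244 in control and at 5971, 4895, 3888 and 8281 in KI libraries (-0.93, adjusted p = 0.0141). Lgi1 was at 1642 to 2004 in control and 2188 to 2621 in KI libraries (0.40, adjusted p = 0.0134). The groups did not overlap for either gene. Lgi1 lost its call without control replicate 2 (adjusted p = 0.0515), and Lgi3 without control replicate 2 (0.0508) or KI replicate 2 (0.0510).

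The perinodal matrix, to which Tnr belongs, had 6 lower and 1 higher of 11 genes, with a median of -0.37. Vcan, the versican proteoglycan that tenascin-R binds, had the largest change, from 1579, 1528, 2078 and 1302 in control to 282, 307, 188 and 1122 in KI libraries (-2.12, SE 0.464, adjusted p = 0.0157). Acan, the proteoglycan of perineuronal nets, was at 436 to 723 in control and 235 to 410 in KI libraries (-0.89, adjusted p = 0.0157). Tnc, the paralog of Tnr, was at 173 to 251 and 88.1 to 171 (-0.78, adjusted p = 0.0232), and Hapln4, a link protein of nodes and nets, at 4506 to 5126 and 3509 to 4357 (-0.30, adjusted p = 0.0243). Ncan and Hapln3 were lower as well. Hapln1, the link protein that rose, was at 1117 to 1389 in control and 1880 to 2200 in KI libraries (0.64, adjusted p = 0.0075) and kept its call in each of 8 fits. Groups did not overlap for 7 of the 11 genes, against 25.5% of all genes. Acan and Vcan lost the call without control replicate 2 or KI replicate 2 (adjusted p = 0.0507 to 0.0533), Tnc without control replicates 2 or 3 or KI replicates 1, 2 or 3 (0.0501 to 0.0711), and Hapln4 without control replicates 1 or 2 or KI replicates 1, 2 or 3 (0.0570 to 0.0780).

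Of 12 genes of the internode and of glial adhesion, 8 were lower and 1 was higher by limma, with a median of -1.24. DESeq2 called 6 of the 12 lower and edgeR 5. Among all 15123 genes, limma called 1874 lower, DESeq2 2162 and edgeR 1698. Mag, Opalin and Ermn of this list are also among the OL markers above. Mag, the adhesion molecule of the innermost myelin membrane, was at 39492, 39213, 41086 and 31881 in control and 13065, 8729, 4978 and 26633 in KI libraries (-1.77, SE 0.418, adjusted p = 0.0189). Cd9, a tetraspanin of myelin, was at 2737 to 3564 in control and 617 to 2783 in KI libraries (-1.51, adjusted p = 0.0227), and Jam3 at 2005 to 2829 and 638 to 2285 (-1.23, adjusted p = 0.0282). For Cd9 and Jam3, KI replicate 4 lay among the controls. The call of Jam3 was lost with edgeR (adjusted p = 0.0520). Opalin, Cldn11, Cadm3 and Cadm4 were also lower. Cadm2, an adhesion molecule of neurons and axons, was at 2901 to 3957 in control and 4029 to 5060 in KI libraries (0.34, adjusted p = 0.0453). Mag lost the call without control replicates 2 or 3 or KI replicate 2 (adjusted p = 0.0507 to 0.0623), Cd9 without those or control replicate 1 or KI replicate 1 (0.0543 to 0.0702), Jam3 in all but those without control replicate 4 or KI replicate 4 (0.0601 to 0.0855), and Cadm2 in all but that without control replicate 3 (0.0526 to 0.114).

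Of 16 paralogs of the 10 genes, 4 were lower and none was higher by limma, DESeq2 or edgeR, and the median was -0.19. At an unadjusted p under 0.05 in limma, 1 was higher, as were 2859 of all 15123 genes. L1cam, the relative of Nfasc and Nrcam found on growing axons, was at 3409, 4572, 3786 and 4152 in control and 2370, 2512, 2339 and 3051 in KI libraries (-0.63, SE 0.112, adjusted p = 0.0106), with no overlap and with its call kept in each of 8 fits. Olfm2 and Olfm1, secreted proteins that share the olfactomedin domain of gliomedin, were at 2426 to 2686 and 6763 to 7512 in control and at 1430 to 2225 and 5776 to 6347 in KI libraries (-0.52 and -0.24, adjusted p = 0.0178 and 0.0240). Cntn3, a contactin, was at 454 to 599 and 327 to 503 (-0.51, adjusted p = 0.0353). Olfm2 lost the call without control replicate 2 or KI replicate 2 (0.0595 and 0.0516), Olfm1 without control replicates 1 or 2 or KI replicates 1, 2 or 3 (0.0539 to 0.0827), and Cntn3 in all but those without control replicate 1 or KI replicate 4 (0.0693 to 0.103).

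**Figure D5:**
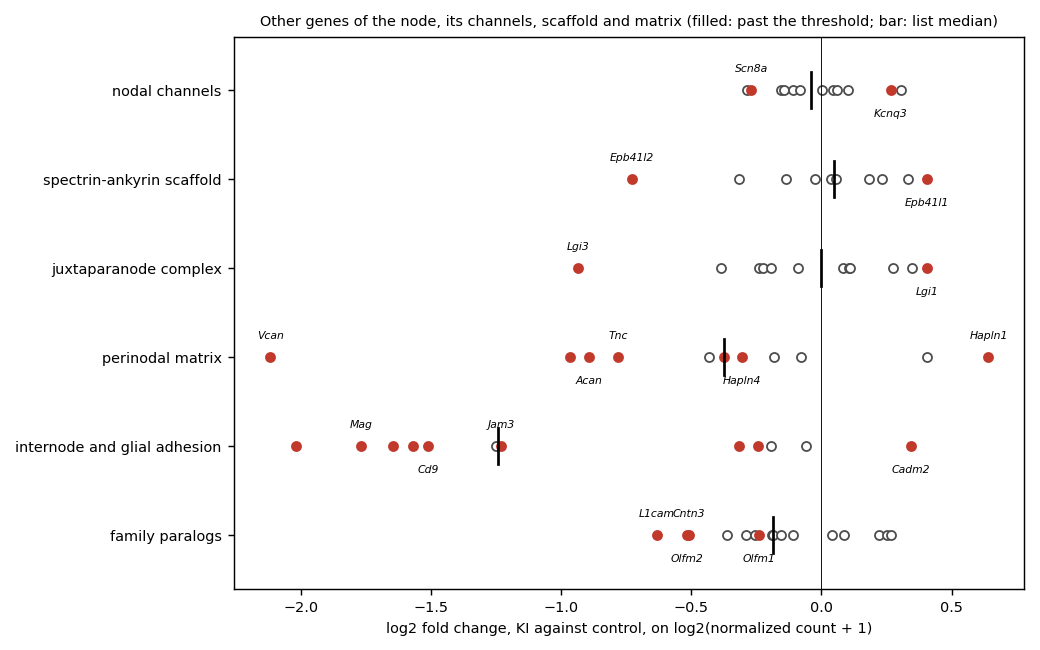
Log2 fold change of KI against control mice (horizontal axis) for each gene of 6 lists, with filled red points for genes past the threshold, open points for the rest and a bar at the list median. Medians were between -0.19 and 0.046 for the channel, scaffold, juxtaparanode and paralog lists, -0.37 for the matrix and -1.24 for the internode list.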

How the data were processed

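BS libraries of 4 KI and 4 control mice were prepared by the authors with a TruSeq mRNA kit and sequenced in pairs. The authors aligned the reads to mm10 with STAR 2.7, counted them per Ensembl gene with HTSeq without strand at a minimum alignment quality of 10, leaving out ambiguous reads, and ran DESeq2. In the deposited table the signal is a read count divided by the DESeq2 size factor of its library. When the division was undone, 100% of values were whole reads within 0.01, and counts were recovered from it. The authors' own fold changes and p-values in the table were not used. Of 24709 lines, 628 repeats were dropped.

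Genes with a mean of at least 10 (15123) were compared on log2(normalized count + 1), a scale on which changes of low genes are understated, by limma 3.58.1 (R 4.3.3), letting the variance follow expression. DESeq2 1.42.0 and edgeR 4.0.16 on the recovered reads, other scalings, filters, pseudocounts, covariates and left-out libraries were alternatives, and the steps were tested on simulated data. The 10 genes, the lists and the tests were chosen with earlier results of these data known. All 10 genes are named, and from each list the members past the threshold, at most the 4 with the smallest p in each direction; a few are not reported here by name but stay in the counts. Ncan, Hapln3, Opalin, Cldn11, Cadm3 and Cadm4 and the called cell markers were added so that counts were complete, a choice made once their values were known. Loci and exons are from GENCODE M21 and promoters from RefSeq.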

Additional observations from a re-analysis of the deposited data

Results flagged for a closer look

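In groups of 4 libraries, the highest or lowest library was marked where its gap to the nearest other library was, as a share of the range of the group, above Dixon's 95% critical value. This was the case for 9 of 78 groups, and chance marks about 1 in 20, or 3.9. In 8 of the 9 the library was KI replicate 4, with normalized counts of 6456 for Tnr, 5614 for Cntn2, 8596 for Scn8a, 4850 for Epb41l2, 1122 for Vcan, 2783 for Cd9 and 503 for Cntn3, each above the other KI libraries, and 328 for Gt(ROSA)26Sor, below them. For the first 7 of these genes the value of KI replicate 4 was the KI value nearest to the control mean. The remaining one was Hapln1 in KI replicate 1, at 2200, above the other KI libraries. The genes share these libraries, so the 9 are not separate events.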

How the results depend on the processing

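Tnr and Nfasc kept their direction and their call under all 20 alternatives but the replicate block (adjusted p = 0.0559 for both). With the replicate number as a block, limma called 0 genes and 0 of the 10 members, although 5087 genes and 3 members had an unadjusted p under 0.05, and without it DESeq2 and edgeR called 4417 and 3627 genes and 3 and 2 members. Same-numbered libraries did not deviate together (correlations of 0.256, -0.117, -0.463 and -0.362), and the numbers mark no stated pairs. Which KI and control libraries come from littermates is not given, so a pairing by litter was not tested. Against 3685 changed genes, 2210 were called with log2 Xist as a covariate, 1843 without the libraries low in Ttr, 1910 in the libraries low in Xist alone (chosen after seeing the data), and 888 (without control replicate 2) to 5292 (without KI replicate 4) with 1 library left out, while the members called were 2 to 4. Cntn2 was not called with edgeR, no filter (0.0504), the block (0.0978), log2 Xist, without the libraries low in Ttr (0.0839) or after GC and length correction (0.111). It was called with DESeq2 (0.0145) and in the libraries low in Xist alone (0.0247). The values near 0 of 5 genes changed sign: Cntn1 (-0.011 after GC and length correction, -0.025 to 0.050 with 1 library left out), Cntnap2 (-0.048 and -0.060 to 0.072), Nrcam (-0.051 without the libraries low in Ttr and -0.047 to 0.083), Cntnap1 (-0.0033 to 0.12) and Gldn (-0.13 to 0.37). Of 400 values of 20 called genes of the lists, 273 kept the call and 127 lost it, and none changed direction. With 1 library left out, the ratio differences were -1.89 to -1.35 for Nfasc to Nrcam, -1.20 to -0.71 for Cntn2 to Cntn1, -1.21 to -0.68 for Cntn2 to Cntnap2, -0.40 to -0.24 for Ank3 to Sptbn4, -0.024 to 0.11 for Cntnap1 to Cntnap2 and -0.11 to 0.011 for Cntn1 to Cntnap1. Gldn had the widest interval of the 10 genes.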
